A study of Mus musculus with 16 samples.

Results

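The Hippo pathway and its output were followed through 10 transcripts in the left ventricle (LV): the co-activators Yap1 and Wwtr1 (which encodes TAZ), the transcription factor Tead1, the kinases Lats1, Lats2 and Stk3, the scaffold Sav1, the TEAD partner Vgll4, and the YAP target genes Ctgf and Cyr61, which newer annotations call Ccn2 and Ccn1. They were taken by symbol from the deposited table of 11811 genes, and all 10 were listed and passed the minimum for testing, a mean of at least 0.5 FPKM, as did 11544 genes in all. RNA was sequenced from 8 TGAC8 and 8 WT mice, males of 3 months on the C57BL/6 background, with 1 library per mouse. TGAC8 mice carry the cDNA of human ADCY8, one of the enzymes that form cAMP, and the α-myosin heavy chain promoter drives it in cardiac myocytes. WT mice carry no transgene, and no treatment was given to either genotype. The human transcript was listed at 411.5 to 602.4 FPKM in the TGAC8 libraries, and at 0 in 7 of the 8 WT libraries with 0.345 FPKM in the other. Pieces of LV free wall were sequenced whole. In such RNA fewer cells of a type and less RNA per cell cannot be told apart.

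In the Hippo pathway the kinases STK3 (MST2) and STK4 (MST1), with the scaffold SAV1, activate LATS1 and LATS2, which phosphorylate YAP and TAZ and so keep them out of the nucleus. When the kinases are quiet, YAP and TAZ bind TEAD factors and switch on genes such as Ctgf and Cyr61, while VGLL4 competes with them for TEAD. In the heart the pathway is known for holding back the growth of cardiac myocyte number, and LATS2 and the angiomotin AMOTL2 are themselves products of YAP target genes, which closes a feedback loop.

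RefSeq promoters matched 7 of the 10 genes on GRCm38.p6, and none was at hand for Tead1, Stk3 and Ctgf. Those of Cyr61 and of the 3 genes called higher in TGAC8 on the deposited scale (Wwtr1, Sav1 and Lats1) are printed as the 250 bases before the start, on the strand of the gene, to show the letters that TEAD factors recognize. Capitals mark GGAATG, or CATTCC where the motif is read on the other strand.
Cyr61, chr3:145649986-145650235, minus strand: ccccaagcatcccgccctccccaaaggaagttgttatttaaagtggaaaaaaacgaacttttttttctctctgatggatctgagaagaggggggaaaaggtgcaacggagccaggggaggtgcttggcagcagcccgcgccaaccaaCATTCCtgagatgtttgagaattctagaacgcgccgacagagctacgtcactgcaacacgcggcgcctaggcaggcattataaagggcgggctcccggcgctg
Wwtr1, chr3:57575911-57576160, minus strand: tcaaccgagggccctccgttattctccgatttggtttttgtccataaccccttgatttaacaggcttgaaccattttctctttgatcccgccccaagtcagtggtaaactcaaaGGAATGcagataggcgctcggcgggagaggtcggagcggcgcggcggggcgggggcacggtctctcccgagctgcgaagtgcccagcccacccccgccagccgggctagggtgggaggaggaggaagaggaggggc
Sav1, chr12:69987003-69987252, minus strand: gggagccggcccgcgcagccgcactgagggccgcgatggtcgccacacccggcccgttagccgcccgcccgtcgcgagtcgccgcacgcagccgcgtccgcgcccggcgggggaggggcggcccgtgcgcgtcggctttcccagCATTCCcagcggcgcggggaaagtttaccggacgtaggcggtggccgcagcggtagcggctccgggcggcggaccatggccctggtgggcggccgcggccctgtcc
Lats1, chr10:7680959-7681208, plus strand: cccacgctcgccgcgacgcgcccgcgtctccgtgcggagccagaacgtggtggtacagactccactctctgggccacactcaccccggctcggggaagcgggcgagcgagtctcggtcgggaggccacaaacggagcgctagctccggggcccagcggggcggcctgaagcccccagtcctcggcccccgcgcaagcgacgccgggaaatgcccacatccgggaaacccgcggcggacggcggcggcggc
A match stood in 5 of the 7 genes (Cyr61, Wwtr1, Sav1, Yap1 and Vgll4), and 12.6% of all 32851 promoters of this length hold the motif on either strand. That share counts promoters and not genes, and Wwtr1 and Lats2 had more than 1 promoter each. In Cyr61 it lay 103 to 98 bases before the start, in Wwtr1 136 to 131 bases, and in Sav1 106 to 101 bases. Lats1 had none in this window. The full cAMP response motif TGACGTCA, held by 1.55% of promoters, was in none of the 7 genes, and its core TGACG, held by 17.8% on either strand, was in those of Cyr61 (as CGTCA, 58 to 54 bases before the start) and Lats2. These are matches of letters, not measured binding.

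Of the 10 transcripts Cyr61 was lower in TGAC8 LV, and Wwtr1, Lats1 and Sav1 were higher on the deposited scale, by 1.16 to 1.20 times. Cyr61 stood at 0.546 of its WT level (95% confidence interval 0.475 to 0.627). Yap1, Tead1, Lats2, Stk3, Vgll4 and Ctgf did not pass (limma, adjusted p under 0.05 over all tested genes). Among all tested genes 20.9% were called higher and 4.65% lower, so 3 of 10 higher is a share near the background. After geometric scaling, in which every library is brought to the same median against a geometric mean library, 0 were higher (0 also at an unadjusted limma p under 0.05) and 3 lower, namely Cyr61, Ctgf and Tead1, where 9.74% of all tested genes were called higher and 10.8% lower. Cyr61 was the 1 member called on both scales. Over all tested genes the fold changes centered on a log2 value of 0.12 in the deposited FPKM and of 0.0074 when scaled, and those of the 10 members on 0.18 and 0.068. Relative to the shift as deposited, Wwtr1 stood 0.095, Lats1 0.14 and Sav1 0.12 higher, Ctgf stood at -0.50 and Cyr61 at -0.99 on the log2 scale.

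**Figure D1:**
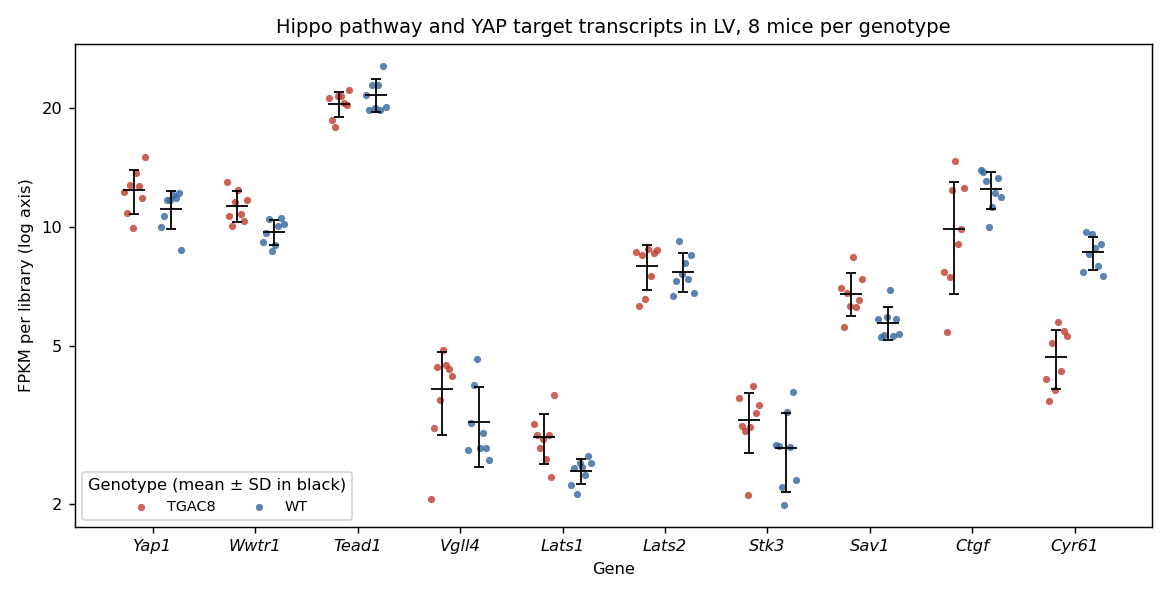
Level of the 10 transcripts in each LV library, in FPKM on a log axis, with TGAC8 left of WT for every gene (points, 8 mice per genotype; black, mean ± SD). The 8 TGAC8 values of Cyr61, from 3.65 to 5.75 FPKM, all lie below the 8 WT values, from 7.53 to 9.71 FPKM, and those of the other 9 genes overlap.

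Yap1 and Wwtr1 encode the co-activators on which the pathway converges. Yap1 (chromosome 9 of mm10, 7931999 to 8004596, minus strand) had a lowest value of 9.95, a median of 12.5 and a highest value of 15.0 FPKM in TGAC8 LV, against 8.78, 11.7 and 12.2 FPKM in WT. The genotypes overlapped, with 5 TGAC8 libraries above the highest WT library. Its log2 fold change of 0.15 (standard error 0.0837, limma adjusted p = 0.197) did not pass, and its 95% confidence interval ran from -0.025 to 0.33.

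Wwtr1 (chromosome 3 of mm10, 57455649 to 57575910, minus strand) had a lowest value of 10.1, a median of 11.2 and a highest value of 13.0 FPKM in TGAC8 LV, against 8.72, 9.86 and 10.6 FPKM in WT. All 8 TGAC8 libraries lay above the WT median and 6 above the highest WT library. The log2 fold change of Wwtr1 was 0.21 (standard error 0.0599, limma adjusted p = 0.0143) as deposited, and it passed in all 16 fits that left out 1 library. After geometric scaling it was 0.10 (limma adjusted p = 0.203) and did not pass. Transcripts of the 2 co-activators were present at similar levels, Wwtr1 being 43.7 to 53.7% of their summed FPKM in TGAC8 libraries and 42.7 to 53.8% in WT libraries.

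Tead1 (chromosome 7 of mm10, 112679318 to 112906807, plus strand) encodes the DNA-binding partner of YAP and TAZ and was the most abundant of the 10 transcripts in every library of both genotypes. It had a lowest value of 17.9, a median of 20.9 and a highest value of 22.2 FPKM in TGAC8 LV, against 19.8, 20.8 and 25.5 FPKM in WT. The medians were close, while 2 TGAC8 libraries lay below the lowest WT library and 3 WT libraries lay above the highest TGAC8 library. Its log2 fold change was -0.072 (standard error 0.0605, limma adjusted p = 0.404) as deposited and -0.19 after geometric scaling (limma adjusted p = 0.0146), where it was called lower. Tead1 made up 88.0 to 92.9% of the summed FPKM of Tead1, Tead2 and Tead3 in TGAC8 libraries and 90.4 to 94.3% in WT libraries.

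Vgll4 (chromosome 6 of mm10, 114860628 to 114969994, minus strand), whose product competes with YAP for TEAD, had a lowest value of 2.06, a median of 4.29 and a highest value of 4.88 FPKM in TGAC8 LV, against 2.58, 2.90 and 4.64 FPKM in WT. In TGAC8, 7 of 8 libraries lay above the WT median and replicate 1 lay below the lowest WT library. For Vgll4 the log2 fold change was 0.26 (standard error 0.161, limma adjusted p = 0.256), and without TGAC8 replicate 1 it was 0.38 (limma adjusted p = 0.0397). Vgll3, a relative, had a log2 fold change of 0.22 (limma adjusted p = 0.385) at about 1 FPKM.

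Both LATS kinases, which phosphorylate YAP and TAZ, were measured. Lats1 (chromosome 10 of mm10, 7681214 to 7716460, plus strand) had a lowest value of 2.34, a median of 2.95 and a highest value of 3.77 FPKM in TGAC8 LV, against 2.12, 2.47 and 2.64 FPKM in WT. Of the TGAC8 libraries 6 lay above the highest WT library. Its log2 fold change was 0.26 (standard error 0.0823, limma adjusted p = 0.0257) as deposited and 0.15 after geometric scaling (limma adjusted p = 0.215), and without WT replicate 3 its adjusted p was 0.0511.

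Lats2 (chromosome 14 of mm10, 57689662 to 57758388, minus strand), also a YAP target gene, had a lowest value of 6.31, a median of 8.55 and a highest value of 8.81 FPKM in TGAC8 LV, against 6.71, 7.52 and 9.25 FPKM in WT. The genotypes overlapped over most of their range. Its log2 fold change was 0.042 as deposited (standard error 0.0851, limma adjusted p = 0.753) and -0.073 after geometric scaling (limma adjusted p = 0.541), so that its direction turned with the scale. The gene Gm49361 overlaps Lats2 on the same strand in GENCODE vM21, and reads could be shared between them. Lats2 was the more abundant of the pair, with 67.9 to 78.6% of their summed FPKM in TGAC8 libraries and 72.9 to 81.4% in WT libraries.

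Upstream of LATS, Stk3 (chromosome 15 of mm10, 34875496 to 35178921, minus strand) had a lowest value of 2.104, a median of 3.27 and a highest value of 3.96 FPKM in TGAC8 LV, against 1.99, 2.80 and 3.83 FPKM in WT. In TGAC8, 7 of 8 libraries lay above the WT median, but the ranges were nearly the same. The change of Stk3 was 0.24 on the log2 scale (standard error 0.136, limma adjusted p = 0.216), with a 95% confidence interval from -0.051 to 0.52.

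Sav1 (chromosome 12 of mm10, 69965012 to 69987002, minus strand), the scaffold that joins STK3 and STK4 to LATS, had a lowest value of 5.58, a median of 6.69 and a highest value of 8.40 FPKM in TGAC8 LV, against 5.29, 5.62 and 6.95 FPKM in WT. Of the TGAC8 libraries 7 lay above the WT median and 3 above the highest WT library. For Sav1 the log2 fold change was 0.24 (standard error 0.0767, limma adjusted p = 0.0314) as deposited and 0.12 after geometric scaling (limma adjusted p = 0.207). It passed in 9 of 16 fits that left out 1 library, and its adjusted p was 0.0525 to 0.0605 in those it did not pass, without TGAC8 replicates 1, 5 or 8 or WT replicates 2, 3, 6 or 8. The table gives Sav1 one locus together with Atl1, Map4k5 and Cdkl1, and Atl1 overlaps Sav1 on the other strand, so its value is less certain than the others.

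**Figure D2:**
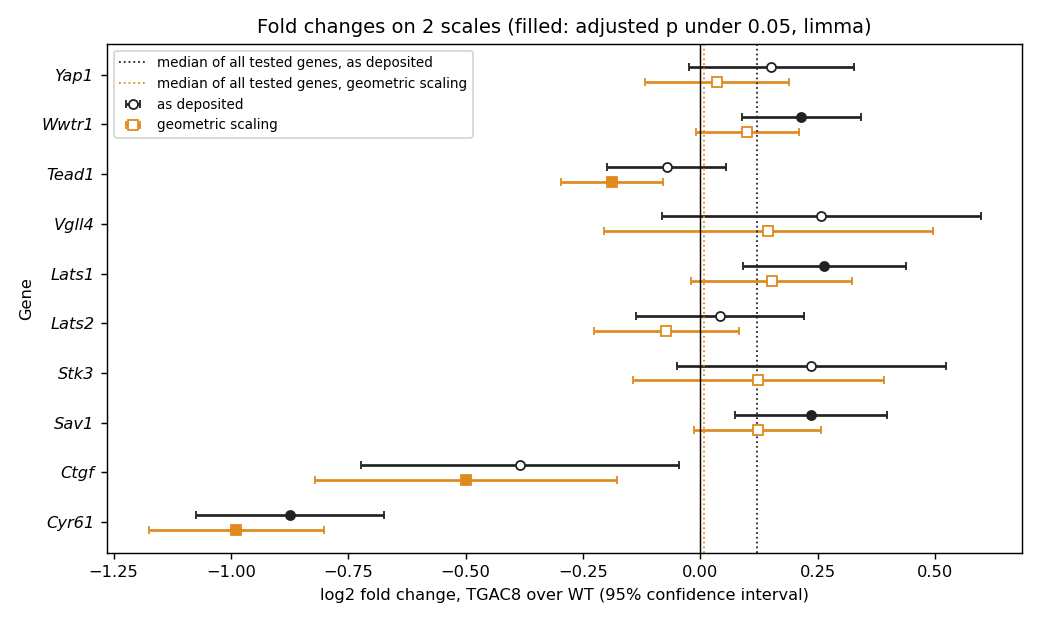
Log2 fold change of each transcript, TGAC8 over WT, with its 95% confidence interval as deposited (black) and after geometric scaling (orange); filled symbols have an adjusted p under 0.05 in limma and dotted lines give the median of all tested genes. Cyr61, at -0.87 and -0.99, is called on both scales, Wwtr1, Lats1 and Sav1 only as deposited, and Ctgf and Tead1 only after geometric scaling.

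Cyr61 (chromosome 3 of mm10, 145646976 to 145649981, minus strand) encodes a secreted matrix protein of the CCN family and is among the most used readouts of YAP and TEAD. It had a lowest value of 3.65, a median of 4.72 and a highest value of 5.75 FPKM in TGAC8 LV, against 7.53, 8.71 and 9.71 FPKM in WT. All 8 TGAC8 libraries lay below all 8 WT libraries, as did those of 1.13% of all tested genes. The mean was 4.70 ± 0.799 FPKM in TGAC8 LV, against 8.63 ± 0.835 FPKM in WT LV (SD, n = 8 each). On the log2 scale the change was -0.87 (standard error 0.0949, limma adjusted p = 3.92e-06), and 0.918% of tested genes had a lower one. After geometric scaling it was -0.99 (limma adjusted p = 3.89e-07). Leaving out each library in turn kept the log2 fold change between -0.92 and -0.83 and the adjusted p between 3.2e-06 and 1.53e-05 in limma.

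Ctgf (chromosome 10 of mm10, 24595442 to 24598683, plus strand) encodes the related CCN protein connective tissue growth factor, a YAP target known from fibrosis. It had a lowest value of 5.42, a median of 9.49 and a highest value of 14.7 FPKM in TGAC8 LV, against 10.01, 12.7 and 13.9 FPKM in WT. Of the TGAC8 libraries 5 lay below the lowest WT library and 1, replicate 5, above the highest. The spread was wider in TGAC8, with a coefficient of variation of 31.4% against 10.9% in WT, a difference that was not tested. The log2 fold change of Ctgf was -0.38 (standard error 0.161, limma adjusted p = 0.0891) as deposited, with a 95% confidence interval from -0.72 to -0.046. After geometric scaling it was -0.50 and passed (limma adjusted p = 0.0269), and without TGAC8 replicate 5 it was -0.47 as deposited and passed (limma adjusted p = 0.0306). The antisense transcript Gm15270 overlaps Ctgf in GENCODE vM21, and no source used here says whether counting separated the strands.

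**Figure D3:**
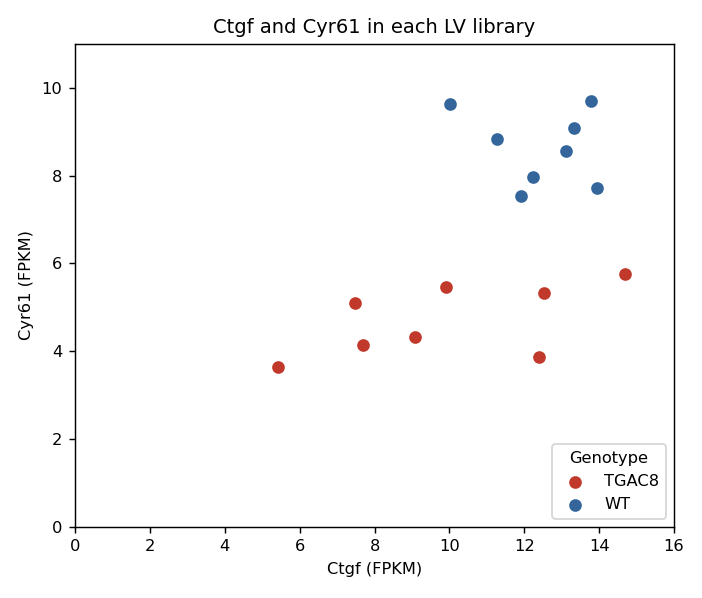
Cyr61 against Ctgf in each LV library, both in FPKM, TGAC8 in red and WT in blue. The TGAC8 libraries spread from 5.42 to 14.7 FPKM of Ctgf and stay at or below 5.75 FPKM of Cyr61, and the WT libraries stay at or above 7.53 FPKM of Cyr61.

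The order of the levels, per transcript length, differed between the genotypes mainly through these target genes. In TGAC8 LV the mean FPKM ran from Tead1 at 20.5 through Yap1 at 12.4, Wwtr1 at 11.3, Ctgf at 9.90, Lats2 at 7.97, Sav1 at 6.79, Cyr61 at 4.70, Vgll4 at 3.90 and Stk3 at 3.25 to Lats1 at 2.94. In WT it ran from Tead1 at 21.6 through Ctgf at 12.5, Yap1 at 11.1, Wwtr1 at 9.73, Cyr61 at 8.63, Lats2 at 7.72, Sav1 at 5.74, Vgll4 at 3.21 and Stk3 at 2.77 to Lats1 at 2.42. Within a library the neighbors Tead1 and Yap1, Lats2 and Sav1, and Sav1 and Cyr61 kept this order in all 8 TGAC8 libraries. Yap1 exceeded Wwtr1 in 6 of them and Wwtr1 exceeded Ctgf in 5, so those neighbors were not apart beyond their spread. In WT the order held in all 8 libraries between Tead1 and Ctgf, Lats2 and Sav1, and Sav1 and Vgll4.

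Ratios between transcripts of the same library do not depend on how libraries are scaled, and 7 were compared between the genotypes with exact permutation tests over all 12870 splits, 2-sided, with Benjamini-Hochberg adjustment over the 7. The ratio of Wwtr1 to Tead1 was higher in TGAC8, with a lowest value of 0.510, a median of 0.551 and a highest value of 0.613 in TGAC8, against 0.395, 0.447 and 0.509 in WT. The genotypes did not overlap, though the lowest TGAC8 and the highest WT library were nearly equal. The log2 difference was 0.29 (standard error 0.0579, exact permutation p = 0.000155, the smallest that 8 against 8 can give, adjusted p = 0.00109). The ratio of Yap1 to Tead1 differed by 0.22 on the log2 scale (standard error 0.0863, exact permutation p = 0.0239, adjusted p = 0.0558) and did not pass after adjustment, with 7 of 8 TGAC8 libraries above the WT median.

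The ratio of Ctgf to Cyr61 had a lowest value of 1.46, a median of 1.98 and a highest value of 3.20 in TGAC8, against 1.04, 1.5 and 1.81 in WT, and 6 TGAC8 libraries lay above the highest WT library. Its log2 difference was 0.49 (standard error 0.159, exact permutation p = 0.00839, adjusted p = 0.0294), so relative to WT the level of Cyr61 was lower against that of Ctgf. Without WT replicate 5 its adjusted p was 0.0566 in the exact permutation test. The other ratios did not pass. The log2 difference was 0.064 for Wwtr1 to Yap1 (standard error 0.10, exact permutation adjusted p = 0.528), -0.22 for Lats2 to Lats1 (standard error 0.122, exact permutation adjusted p = 0.122), 0.28 for Stk3 to Stk4 (standard error 0.158, exact permutation adjusted p = 0.122) and 0.33 for Vgll4 to Tead1 (standard error 0.191, exact permutation adjusted p = 0.122). Vgll4 to Tead1 changed its call without TGAC8 replicate 1, where the log2 difference was 0.46 (exact permutation adjusted p = 0.0276).

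**Figure D4:**
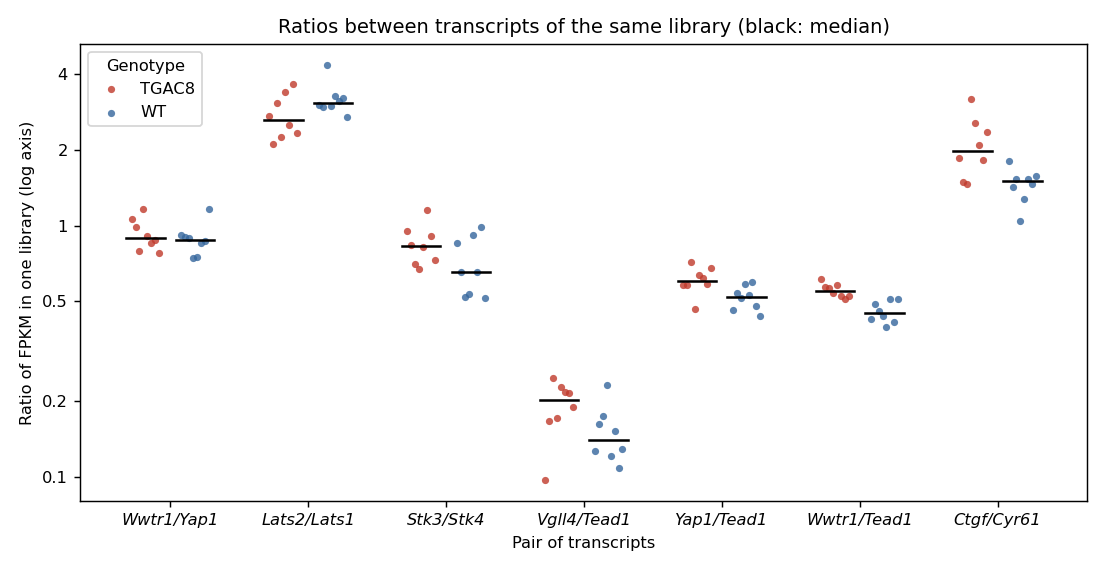
Ratio of 2 transcripts in the same LV library for 7 pairs, on a log axis, with TGAC8 left of WT (points, 8 libraries each; black, median). The Wwtr1/Tead1 ratios of TGAC8, from 0.510 to 0.613, lie above those of WT, from 0.395 to 0.509, and the other 6 ratios overlap.

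Within a genotype Ctgf and Cyr61 did not move together in a way that 8 libraries could show. Pearson's r between them was 0.579 in TGAC8 and -0.215 in WT (exact permutation p = 0.131 and 0.614), Spearman's rho was 0.643 and -0.0476 (exact permutation p = 0.0962 and 0.935), and without the 2 libraries farthest from the median of Ctgf r was 0.00317 in TGAC8 and 0.552 in WT. Cyr61 is also an immediate early gene, and Egr1, the zinc finger factor often used to mark such a response, was set against both targets. With Cyr61 its r was 0.712 in TGAC8 and 0.185 in WT (exact permutation p = 0.054 and 0.653), its rho 0.667 and 0.262 (exact permutation p = 0.0831 and 0.536), and its r without the 2 farthest libraries 0.158 and 0.574. With Ctgf its r was 0.204 in TGAC8 and 0.519 in WT (exact permutation p = 0.62 and 0.189), its rho 0.167 and 0.333 (exact permutation p = 0.703 and 0.428), and its r without the 2 farthest -0.0661 and 0.00656. None of the 6 relations passed after adjustment, with a lowest adjusted p of 0.324 for r and 0.289 for rho in exact permutation tests.

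Other immediate early genes were not lower with Cyr61. Of 12 listed ones 3 were called higher and 0 lower in limma (6 and 0 at an unadjusted p under 0.05), a share of 25.0% near the 20.9% of all tested genes, with a median log2 fold change of 0.33: Fosl2 (log2 fold change 0.58, limma adjusted p = 0.019), Junb (0.47, limma adjusted p = 0.00493) and the nuclear receptor gene Nr4a1 (1.32, limma adjusted p = 0.0254). Nr4a1 had 2.34 to 16.6 FPKM in TGAC8 LV, against 1.38 to 6.62 FPKM in WT, and it did not pass without TGAC8 replicates 5 or 7 or WT replicate 8 (limma adjusted p = 0.0507 to 0.051). As deposited the log2 fold change was above 0 for all 12, and for 8470 of the 11544 tested genes. After geometric scaling 2 of the 12 passed (16.7%, against 9.74% of all tested genes), and after quantile normalization 1 (8.33%, against 9.16%). With the library number as a block in the fit 5 passed (41.7%, against 17.5%), and with scaling and block 3 (25.0%, against 7.97%). The share relative to all tested genes thus depended on the setting. Egr1 had a log2 fold change of 0.24 (limma adjusted p = 0.306) and Fos of 0.80 (limma adjusted p = 0.154) as deposited. With the block Fos passed (limma adjusted p = 0.0301) and Egr1 did not (limma adjusted p = 0.2275). Atf3, named after its values were seen, also passed with the block alone (limma adjusted p = 0.0617 as deposited, 0.0372 with the block).

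By the shape of their values within the genotypes, the genes most like Cyr61 among 10207 with a mean of at least 1 FPKM were Slx4, Lap3, Mitf, Nck2 and Fubp1, with a mean Pearson r over the 2 genotypes of 0.807 to 0.858 (8 libraries each). Those most like Ctgf were Picalm, Plpp1, Med16, Cx3cl1 and Arrdc4, with 0.834 to 0.844. Of these 10 genes Mitf, a transcription factor gene, was called lower in TGAC8 (log2 fold change -0.27, limma adjusted p = 0.000904) and the other 9 did not pass. Ctgf stood at place 4041 by likeness to Cyr61, with a mean r of 0.182. These are the largest of many values over few libraries and are given as a description.

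Other genes reported as direct YAP targets included calls in both directions. Of 16 listed ones, which leave out Ctgf, Cyr61 and Lats2, 5 were called higher (31.2%, against 20.9% of all tested genes) and 1 lower (6.25%, against 4.65%), with a median log2 fold change of -0.018, against 0.12 over all tested genes. Tgfb2, which encodes the growth factor TGF-β2, had a lowest value of 1.78, a median of 2.21 and a highest value of 2.996 FPKM in TGAC8 LV, against 0.887, 1.27 and 1.63 FPKM in WT (log2 fold change 0.79, standard error 0.121, limma adjusted p = 0.000129). Ccdc80, which encodes a secreted matrix protein, had 22.0, 30.03 and 44.4 FPKM in TGAC8, against 15.7, 18.6 and 21.0 FPKM in WT (log2 fold change 0.73, standard error 0.103, limma adjusted p = 6.14e-05). Axl, a receptor tyrosine kinase gene, had 8.69, 10.9 and 12.6 FPKM in TGAC8, against 6.58, 7.11 and 8.28 FPKM in WT (log2 fold change 0.55, standard error 0.0757, limma adjusted p = 4.68e-05). In these 3 genes every TGAC8 library lay above every WT library, as in 4.79% of all tested genes.

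Myof, which encodes the membrane repair protein myoferlin, was higher as well, with 0.798, 1.55 and 2.26 FPKM in TGAC8 against 0.711, 0.933 and 1.06 FPKM in WT (log2 fold change 0.65, limma adjusted p = 0.00518). Gadd45a, a growth arrest and DNA damage gene, was lower, with 3.13, 3.99 and 5.92 FPKM in TGAC8 against 5.60, 6.08 and 7.65 FPKM in WT (log2 fold change -0.56, standard error 0.107, limma adjusted p = 0.00093). Arhgef17 passed as deposited (log2 fold change 0.21, limma adjusted p = 0.0323) and not after geometric scaling (limma adjusted p = 0.303), nor without TGAC8 replicates 1, 2, 5, 7 or 8 or WT replicates 2, 3 or 4 (limma adjusted p = 0.0525 to 0.0641). Ankrd1, a cardiac ankyrin repeat protein gene, had the widest spread, with 93.9, 166.1 and 311.9 FPKM in TGAC8 against 202.3, 247.6 and 332.4 FPKM in WT. Its log2 fold change of -0.49 did not pass as deposited (limma adjusted p = 0.113), and it passed after geometric scaling (limma adjusted p = 0.0499) and without TGAC8 replicate 5 (limma adjusted p = 0.0434), the library that also had the highest Ctgf. After geometric scaling Tgfb2, Ccdc80, Axl and Myof were called higher (25.0%, against 9.74% of all tested genes) and 5 of the 16 lower (31.2%, against 10.8%), which were Gadd45a, Ankrd1 and, named after their values were seen, Amotl2, Igfbp3 and Ptpn14.

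Of 4 other CCN genes looked for, 2 were listed and both were called higher as deposited, at levels far below Ctgf. As deposited 20.9% of all tested genes were called higher, and 2 genes are too few to speak for the family. Wisp2 had 0.924 to 3.004 FPKM in TGAC8 LV, against 0.634 to 1.48 FPKM in WT (log2 fold change 0.68, limma adjusted p = 0.0212), and Nov had 0.572 to 1.07 FPKM, against 0.289 to 0.756 FPKM in WT (log2 fold change 0.50, limma adjusted p = 0.033). Neither passed after geometric scaling (limma adjusted p = 0.0555 and 0.103), and Nov did not without TGAC8 replicates 3, 6, 7 or 8 or WT replicates 2 or 4 (limma adjusted p = 0.0546 to 0.0688).

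Among 50 other genes of the pathway, 16 were called higher in TGAC8 and 0 lower as deposited in limma (23 and 1 at an unadjusted p under 0.05), which is 32.0% against 20.9% of all tested genes, with a median log2 fold change of 0.15 against 0.12. After geometric scaling 6 were higher and 6 lower, which is 12% each way against 9.74% and 10.8% of all tested genes, shares near the background. Those lower, named after their values were seen, were Wwc2, Taok1, Ptpn14, Amotl2, Slmap and Ywhae, of which Amotl2 and Ptpn14 also stand among the YAP targets. Those higher were all among the 16 and were the LATS-related kinase genes Stk38 and Stk38l, the cytoskeletal tumor suppressor gene Nf2, the cadherin gene Fat1, the LATS-activating kinase gene Map4k4, and Strip2, a member of the STRIPAK complex that opposes the MST kinases. Nf2, whose product merlin activates the LATS kinases at the membrane, had a lowest value of 24.8, a median of 25.9 and a highest value of 30.8 FPKM in TGAC8 LV, against 19.6, 21.6 and 22.3 FPKM in WT (log2 fold change 0.31, standard error 0.0468, limma adjusted p = 9.97e-05). Stk38l had 2.12, 2.40 and 2.82 FPKM in TGAC8, against 1.61, 1.79 and 1.96 FPKM in WT (log2 fold change 0.41, standard error 0.0688, limma adjusted p = 0.000312). In these 2 of the 50 genes every TGAC8 library lay above every WT library, a share near the 4.79% of all tested genes.

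By role, on the deposited scale where 20.9% of all tested genes were called higher, 3 of 5 other genes of the kinase module were called, which were Mob1b, the LATS co-activator (log2 fold change 0.28), Stk38 (0.34) and Stk38l, while Stk4 had a log2 fold change of -0.044 (limma adjusted p = 0.74). Of 18 upstream activators 7 were called higher, which were Nf2, Fat1 (0.38), the scaffold gene Rassf1 (0.33), and the kinase genes Mink1 (0.28), Map4k4 (0.27), Taok2 (0.27) and Map4k3 (0.19). Of 8 STRIPAK genes 3 were called higher, Strip2 (0.34), Strn4 (0.26) and Strn3 (0.13, limma adjusted p = 0.0524 without WT replicate 8), and Mob4 had -0.13 (limma adjusted p = 0.327). Of 6 genes of 14-3-3 proteins, which hold phosphorylated YAP in the cytoplasm, Ywhaz (0.20) and Ywhab (0.12) were called, Ywhab only just, since it passed in 2 of 16 fits that left out 1 library (without TGAC8 replicates 2 or 6), and of 4 genes of the degradation of YAP the casein kinase gene Csnk1d (0.31) was called. None of the 3 angiomotin genes, the 3 genes of LATS inhibitors of the Ajuba family or the 2 other TEAD genes passed as deposited in limma (1, 1 and 0 at an unadjusted p under 0.05, all higher). After geometric scaling the calls went both ways, with 3 upstream activators higher and 3 lower, 1 STRIPAK gene higher and 1 lower, 2 genes of the kinase module higher and 0 lower (0 also at an unadjusted limma p under 0.05), and 1 gene of a 14-3-3 protein and 1 angiomotin gene lower. Amot had a log2 fold change of -0.30 (limma adjusted p = 0.223), and Tead3 had 0.44 (limma adjusted p = 0.144) at 0.731 to 1.76 FPKM in TGAC8 LV against 0.497 to 1.75 FPKM in WT.

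**Figure D5:**
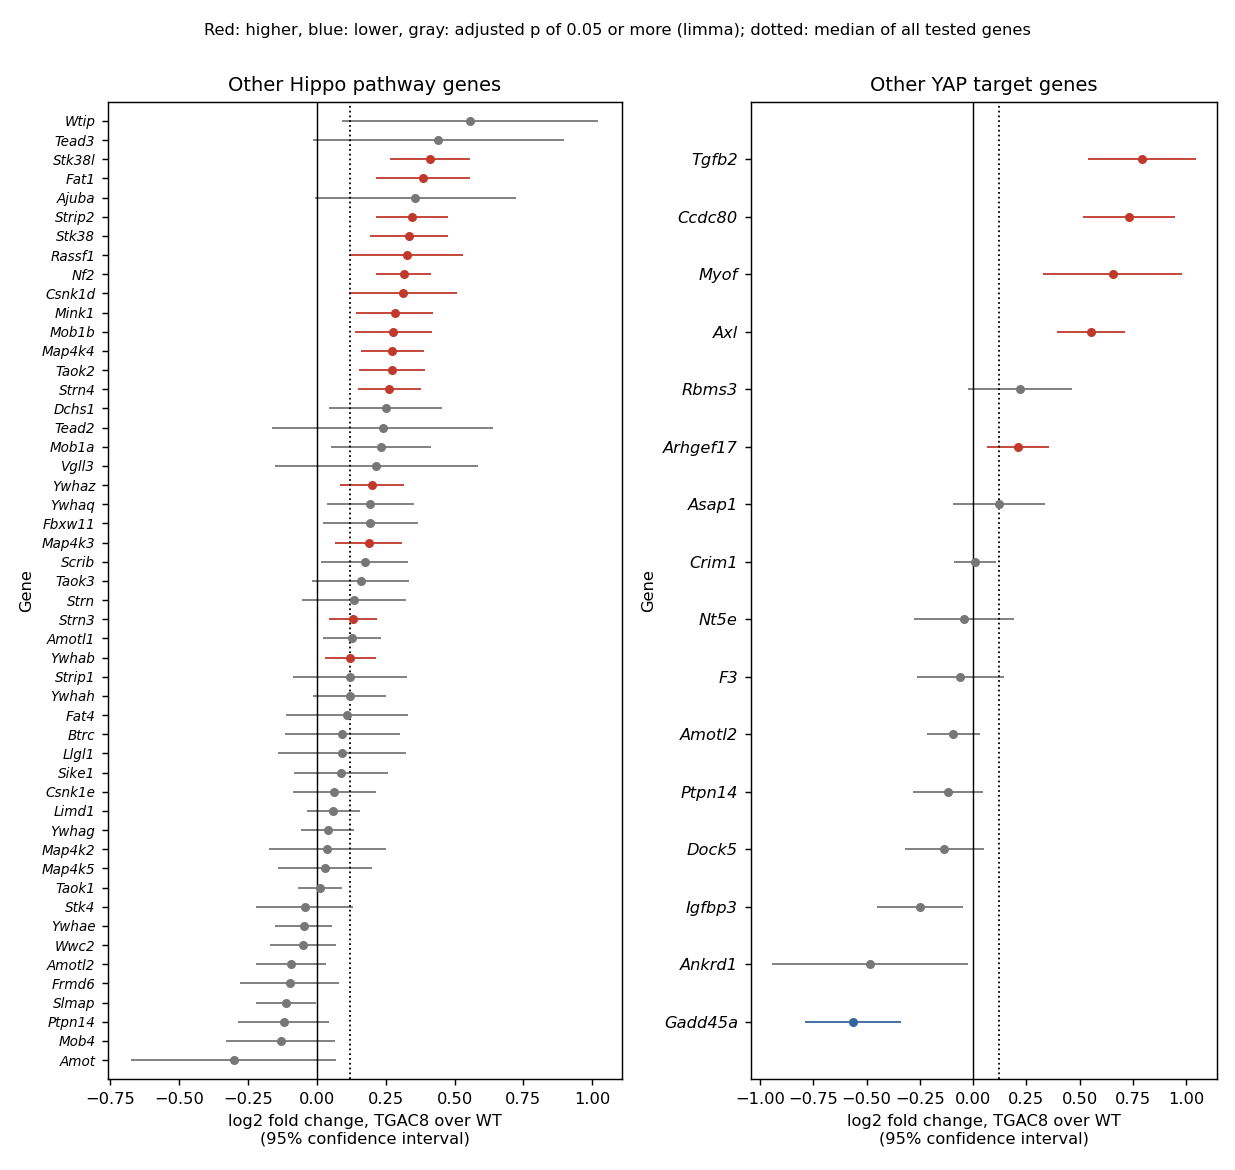
Log2 fold change, TGAC8 over WT, with its 95% confidence interval for 50 other Hippo pathway genes (left) and 16 other YAP target genes (right), on the deposited scale; red was called higher, blue lower, gray did not pass, and the dotted line is the median of all tested genes at 0.12. Of the pathway genes 16 are red and 0 blue, and of the target genes 5 are red and 1, Gadd45a, is blue.

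Markers of other cell types were measured in the same libraries, and 20.9% of all tested genes were called higher as deposited. Of 12 fibroblast markers 11 were called higher, and their summed FPKM was 225.0 to 398.0 in TGAC8 libraries against 181.0 to 209.0 in WT libraries. Of 12 macrophage markers 10 were called higher, with a sum of 150.0 to 217.0 FPKM against 110.0 to 148.0 FPKM in WT. Of 10 smooth muscle and pericyte markers 3 were called higher as deposited (30%). After geometric scaling 2 were (20%, against 9.74% of all tested genes), and after quantile normalization 1 was (10%, against 9.16%). Their sum was 211.0 to 287.0 FPKM in TGAC8 against 187.0 to 215.0 FPKM in WT. Much of that difference was Acta2, with a mean of 68.4 FPKM in TGAC8 and 30.1 FPKM in WT. The log2 fold change was above 0 for 8 of the 10 and below 0 for 2, and Tagln (0.0066) and Rgs5 (0.059) hardly changed. Of 12 endothelial markers 0 were called in limma on either scale (1 higher as deposited and 2 lower after geometric scaling at an unadjusted p under 0.05), with 167.0 to 218.0 FPKM against 177.0 to 198.0 FPKM in WT. Of 12 cardiac myocyte markers 5 were called lower and 1 higher as deposited, where 4.65% of all tested genes were called lower. After geometric scaling 9 were lower and 1 higher (10.8% of all tested genes lower), and after quantile normalization 1 and 2 (9.13% lower). Their sum was 28200 to 33800 FPKM in TGAC8 against 34100 to 37000 FPKM in WT. Myl2 (mean 5878 FPKM in TGAC8, 7600 in WT), Myl3 (2760, 3889) and Mb (5603, 6399) made up much of that difference. As deposited the log2 fold change was below 0 for 9 of the 12 and above 0 for 3, of which Ryr2 was called higher (0.48). None of the listed markers was at 0 in all libraries. The part of these markers in the values of Cyr61, Ctgf and the other YAP target genes was not tested.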

How the data were processed

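LV RNA of 8 TGAC8 and 8 WT mice was measured by RNA sequencing, 1 library per mouse, with a stranded total RNA kit. Per the labels and the study's methods, reads were quality trimmed by the authors and mapped to mm10, with the human ADCY8 cDNA added, with TopHat (TopHat2 2.1.1 in the submitters' processing notes), and the authors computed FPKM with Cufflinks 2.1.1, so the deposited FPKM values are scaled by transcript length and by the number of fragments mapped in each library. No source used here gives the annotation or the use of strand. The deposited table also holds the authors' Cuffdiff comparison (means, fold changes, p and q values), which was not used. FPKM carries no counts. From 46 genes with values near 1 read, the relative depth of the libraries was estimated at 0.849 to 1.08 of their median, and errors come from the differences among mice.

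Of 11811 genes, 11544 averaged 0.5 FPKM or more and entered limma (3.58.1, R 4.3.3) as log2(FPKM + 0.1), with trended variance, 2-sided, with Benjamini-Hochberg adjustment at 0.05. Fold changes on this scale understate changes of low genes. On simulated data for 11544 genes of this comparison the fit recovered 44% of genes at the smallest fold simulated, 74% at 1.5-fold, 84% at 2-fold and 100% at 4-fold, and 6.21% of its calls were false. Ratios within a library and relations within a genotype were tested with exact permutation tests (Python 3.11.15). Members and lists were chosen with earlier results of these data known. Named were all members, every called gene of the pathway, target and CCN lists with the 2 highest and 2 lowest fold changes among genes that reached 1 FPKM in either genotype's mean, Egr1, Fos and every called immediate early gene, and the 5 genes most like Ctgf and Cyr61. Positions are from GENCODE vM21 on mm10. Alternatives were pseudocounts of 1 and 0.01, no filter or 1 FPKM, geometric scaling, quantile normalization, no variance trend, array weights, the library number as a block, and leaving out each library. Geometric scaling together with the block was added after seeing the data.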

Additional observations from a re-analysis of the deposited data

Results flagged for a closer look

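Among 34 groups of 8 values checked, those of the 10 transcripts and 7 ratios in each genotype, 3 held a library far from the others, where chance gives about 1 in 20. All were WT libraries at the high end. Sav1 stood at 6.95 FPKM in WT replicate 5, with the next library at 5.93 FPKM. The ratio of Wwtr1 to Yap1 was 1.16 in WT replicate 8, with the next at 0.917, and that of Lats2 to Lats1 was 4.37 in WT replicate 3, with the next at 3.29. Without WT replicate 5 Sav1 kept a log2 fold change of 0.28 and passed (limma adjusted p = 0.0111).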

How the results depend on the processing

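Of 38 genes (the 10 members and 28 named pathway, target and CCN genes), 38 kept direction and call under both pseudocounts, without the filter and with array weights, 37 without the variance trend, and 18 after geometric scaling, where 16 lost and 3 gained a call and Lats2 reversed. The cause was not tested. Members called higher, 3 as deposited, were 0 after geometric scaling, 0 after quantile normalization, 0 with geometric scaling and block, and 1 to 3 leaving out 1 library (1 without WT replicate 3). Members called lower, 1 as deposited, were 3 after geometric scaling, 3 after quantile normalization, 1 with geometric scaling and block (limma adjusted p of 0.0553 for Tead1 and 0.0859 for Ctgf), and 1 to 2 leaving out 1 library (2 without TGAC8 replicate 5). Other pathway genes called higher, 16 as deposited, were 6, 5 and 4 after geometric scaling, quantile normalization and geometric scaling with block, and 14 to 20 leaving out 1 library. Those called lower, 0 as deposited, were 6, 5 and 4. Other YAP targets called lower, 1 as deposited, were 5, 5 and 4, and 1 to 2 leaving out 1 library (2 without TGAC8 replicate 5 or WT replicate 7). The log2 fold change of Lats2 reversed to -0.07267 after geometric scaling, -0.07681 after quantile normalization and -0.07267 with geometric scaling and block.

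Leaving out 1 library, the log2 difference ran from 0.269 to 0.459 for Vgll4/Tead1 (past the threshold without TGAC8 replicate 1), 0.1887 to 0.2767 for Yap1/Tead1 (past it without TGAC8 replicate 4 or WT replicates 4 or 6) and 0.3982 to 0.5571 for Ctgf/Cyr61 (not past it without WT replicate 5).

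Libraries share numbers across the genotypes. Over all tested genes, libraries of the same number did not deviate together (r of -0.0617 to 0.00672, 0 of 8 pairs over 0.1). Such an r over all genes cannot show a pairing that touches only some of them, and that was not tested. With the number as a block 1 member was called higher, where 17.5% of all tested genes were, 5 of the 38 genes lost a call, and exact sign-flip adjusted p was 0.0547 for Wwtr1/Tead1 (0.287), the smallest that 1 ratio alone can reach after adjustment over 7, and 0.0957 for Ctgf/Cyr61 (0.4897).

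FPKM without counts sets no counting error, so low transcripts such as Lats1, Stk3 and Nov carry an unknown share of it, and a change of composition cannot be told apart from a scale shift.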
